A study of Mus musculus with 32 samples.

Results

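The 38 genes described here encode proteins of skeletal muscle fibres, and their transcripts were followed through 32 RNA-seq libraries of E0771, a mammary carcinoma cell line from a C57BL/6 mouse. They were chosen by name as a fixed list, and all 38 symbols were found among the 22609 genes of the culture and Rag1-/- tables and the 25277 genes of the tables for C57BL/6 hosts. By role, 14 belong to fast fibres, 6 to slow fibres, 10 to the sarcomere or the calcium-release triad of both fibre kinds, and 8 to energy supply and oxygen storage. The study asked what DDR1, a collagen-binding receptor tyrosine kinase, does in the growth of these tumours. In culture, 3 libraries of Ddr1 wild-type cells (1 parental, 2 empty vector, 3 control) were set against 2 of Ddr1 knockout cells (derivatives 3-6 and 3-7). Tumours grown in Rag1-/- mice, a strain without mature lymphocytes of the T and B lineages, gave 5 wild-type and 5 knockout libraries. Tumours moved from Rag1-/- to C57BL/6 hosts gave 4 wild-type and 5 knockout libraries titled day 4. Tumours in C57BL/6 hosts titled day 6 gave 4 libraries after control IgG and 4 after an antibody to the extracellular domain of human DDR1, and the labels of these 8 libraries give no Ddr1 genotype. Host age and sex are not in the labels, and no label says that libraries of 1 group came from separate animals, so the p-values reflect library-to-library spread, which may be technical.

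Skeletal muscle contracts by sliding actin over myosin within sarcomeres, under the control of calcium released from the sarcoplasmic reticulum and sensed by troponin. Fast and slow fibres use different genes for the same parts, among them the myosin heavy chain, its light chains and the subunits of troponin. Adult mouse limb and trunk muscle is mostly fast, whereas embryonic and perinatal myosins are made in developing muscle and again in regenerating fibres. Sarcomeres are not a known feature of mammary carcinoma cells. RNA of a whole tumour piece mixes all cells in it, so fewer cells of a type and less RNA per cell cannot be told apart.

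Totals of recovered reads ranged from 29270919 to 37425032 for the culture libraries and from 18967300 to 25516204 for the Rag1-/- tumours. They ranged from 20148955 to 28600639 for the day 4 and from 20220028 to 39732635 for the day 6 libraries. Levels are the authors' normalized read counts, which are comparable within a table only. RPM values, which scale a gene's recovered reads to library depth, serve to set levels side by side across tables as a description. The targeted gene, Ddr1, lay at 5854 to 7187 in wild-type and 665 to 914 in knockout cells in culture, at 3645 to 4057 and 686 to 886 in Rag1-/- hosts, and at 3091 to 4195 and 615 to 1181 at day 4, with no overlap in any table. At day 6 it lay at 459 to 658 after IgG and 563 to 852 after antibody, below every wild-type library and in or under the range of the knockout tumours, in a table normalized on its own. Levels from a list of 5 epithelial genes, of which Krt19 is not given, describe the pieces but do not settle the labelled tumour identity. Krt8, a keratin of simple epithelia, lay between 160.3 and 689 RPM in all 32 libraries, whereas Krt18, its usual partner, reached at most 93.3 RPM, and the adhesion genes Epcam and Cdh1 at most 41.9 and 19.6 RPM.

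Muscle transcripts were spread unevenly over the tumour pieces. The members summed without Eno3, the muscle enolase gene that was well expressed in every library, came to 38.9, 32.3, 2251 and 371 RPM in day 4 wild-type libraries 1 to 4. The same sum was 34.9, 46.3, 414, 30.6 and 4845 RPM in day 4 knockout libraries 1 to 5. Libraries wild-type 3 and 4 and knockout 3 and 5 were the high ones, so each genotype had both high and low pieces and the groups overlapped. At day 6 the sum was 2149, 11772, 298 and 745 RPM in IgG libraries 1 to 4. It was 137, 26.3, 464 and 45.8 RPM in antibody libraries 1 to 4. All IgG libraries were above 3 of the 4 antibody libraries, and antibody library 3 was above IgG library 3. The highest value of all, in IgG library 2, was 1.18% of that library's reads.

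**Figure D1:**
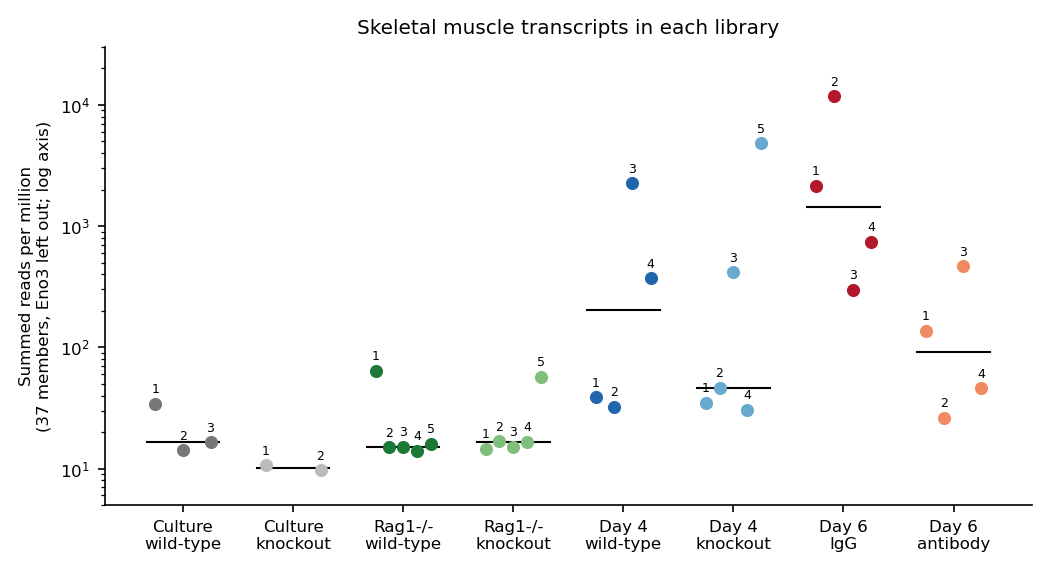
Summed RPM of 37 members (Eno3 left out) in each of 32 libraries, on a log axis, by group. Points are libraries with their numbers and black lines are group medians. Each C57BL/6 group spans at least an order of magnitude, from 30.6 to 4845 RPM in day 4 knockout tumours and from 298 to 11772 RPM in day 6 IgG tumours, while most culture and Rag1-/- libraries lie near 15 RPM.

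In Rag1-/- hosts the sum was 64.0, 15.0, 15.1, 13.981 and 16.0 RPM in wild-type libraries 1 to 5 and 14.5, 16.8, 15.2, 16.7 and 57.037 RPM in knockout libraries 1 to 5. Wild-type library 1 and knockout library 5 stood above the other 8, and they were the 2 highest libraries for 25 of the 38 members. In culture, where there is no host tissue, the sum was 34.3, 14.2 and 16.460 RPM in the wild-type libraries and 10.6 and 9.64 RPM in the knockout libraries. Those culture values show the level at which these genes were read in the tumour cells alone, and 7 members had no read in any culture library.

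Acta1 encodes skeletal muscle actin, the thin-filament protein of both fibre kinds (chromosome 8, 123891769 to 123894751, minus strand, GRCm38, 7 exons). Its normalized count at day 4 was 113, 97.9, 13086 and 2581 in wild-type libraries 1 to 4 and 100.03, 103, 2374, 53.9 and 24737 in knockout libraries 1 to 5. The day 6 counts of Acta1 were 13837, 51438, 1301 and 4119 in IgG libraries 1 to 4 and 479, 30.4, 2349 and 105 in antibody libraries 1 to 4. The 4 high day 4 libraries exceeded the other 5 by more than an order of magnitude, and at day 6 the groups overlapped only through antibody library 3 against IgG library 3. Acta1 in Rag1-/- hosts reached 230.0 in wild-type library 1 and 186 in knockout library 5, and lay between 2.90 and 11.5 in the other 8. Parental cells in culture also carried Acta1, at 572, against 23.2 and 38.8 in the other wild-type libraries and 9.44 and 15.4 in the knockout libraries.

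The promoters of 3 members are shown because they stand for the fibre kinds compared here: Acta1 for both, Myh4 for fast IIb fibres and Tnni1 for slow fibres. Each sequence is the 250 bases before the gene's start in RefSeq (GRCm38.p6), read 5′ to 3′ on the gene's strand. Capitals mark matches to 3 motifs on either strand, namely the E-box (CANNTG, bound by MyoD and its relatives), the CArG box (CC, then 6 bases A or T, then GG, bound by serum response factor) and MCAT (CATTCC, bound by TEAD factors). A narrow MEF2 pattern (CTA, then 4 bases A or T, then TAG) was also searched and had no match in these 3 windows, and wider forms of that motif were not searched.
Acta1 promoter (chr8:123894776-123895025, minus strand): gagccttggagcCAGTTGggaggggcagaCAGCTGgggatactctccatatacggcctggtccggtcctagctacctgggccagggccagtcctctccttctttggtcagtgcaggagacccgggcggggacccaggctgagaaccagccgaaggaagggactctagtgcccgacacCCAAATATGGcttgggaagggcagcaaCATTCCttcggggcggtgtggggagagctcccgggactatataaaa
Myh4 promoter (chr11:67237562-67237811, plus strand): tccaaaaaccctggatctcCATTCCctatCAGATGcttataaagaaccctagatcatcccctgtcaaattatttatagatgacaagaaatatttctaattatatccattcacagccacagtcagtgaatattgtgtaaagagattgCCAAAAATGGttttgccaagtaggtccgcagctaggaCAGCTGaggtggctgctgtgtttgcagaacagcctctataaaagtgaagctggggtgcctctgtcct
Tnni1 promoter (chr1:135799171-135799420, plus strand): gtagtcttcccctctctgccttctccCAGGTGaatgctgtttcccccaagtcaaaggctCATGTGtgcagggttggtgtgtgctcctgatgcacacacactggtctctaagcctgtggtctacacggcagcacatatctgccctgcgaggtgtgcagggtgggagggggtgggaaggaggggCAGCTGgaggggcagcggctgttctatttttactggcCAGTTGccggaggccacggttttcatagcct
The Acta1 and Myh4 windows each held 2 E-boxes, 1 CArG box and 1 MCAT motif, and the Tnni1 window held 4 E-boxes only. RefSeq gives 2 starts for Tnni1, both inside the wider gene span of the GRCm38 annotation, and the window before the other start (chr1:135799261-135799510) held 2 E-boxes. RefSeq promoters were available for 28 members, with 35 promoters in all, and members without an entry were left out. An E-box was in 85.7% of those 35 and in 66.2% of all 32851 promoters of the same length. A CArG box was in 5 of the 35 (14.3%), from 4 members, against 1.47% of all. MCAT was in 8 (22.9%) against 12.6%, and the narrow MEF2 pattern in 1 (2.86%) against 0.508%. Both Ldb3 windows had a CArG box and overlap, so the same site may be counted more than once. With counts this small the shares are a description only. A match is a match of letters only, and no binding was measured.

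Among the fast fibre members, Myh4 encodes the myosin heavy chain of the fastest (IIb) fibres (chromosome 11, 67238029 to 67260446, plus strand). Its normalized count at day 4 was 22.6, 8.24, 302 and 27.9 in wild-type libraries 1 to 4 and 7.48, 25.4, 51.9, 3.65 and 982 in knockout libraries 1 to 5. Myh4 at day 6 was 4444, 32937, 486 and 1184 in IgG libraries 1 to 4 and 288, 8.84, 372 and 51.8 in antibody libraries 1 to 4. Every day 6 IgG library was above every antibody library, although IgG library 3 and antibody library 3 were close. In RPM, which can be set side by side across tables, Myh4 peaked at 41.3 at day 4 and 1083 at day 6. Myh1, the heavy chain of IIx fibres (chromosome 11, 67200052 to 67224575, plus strand), lay at 5.89, 8.24, 2647 and 185 in wild-type libraries 1 to 4 and 22.4, 5.39, 533, 2.74 and 6579.7 in knockout libraries 1 to 5. At day 6 Myh1 was 3825, 6434, 466 and 1510.0 in IgG libraries 1 to 4 and 51.9, 1.96, 1304 and 4.41 in antibody libraries 1 to 4. Unlike Myh4, Myh1 peaked at similar RPM at both times, 277 at day 4 and 211 at day 6.

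Myh2, the heavy chain of IIa fibres, was low throughout day 4, at 1.96, 0, 19.2 and 0.998 in wild-type libraries 1 to 4 and 1.87, 1.54, 11.3, 0.913 and 78.9 in knockout libraries 1 to 5. At day 6 Myh2 was 985, 1992, 20.6 and 222 in IgG libraries 1 to 4 and 16.6, 0, 166 and 6.61 in antibody libraries 1 to 4. IgG libraries 1 and 2 were the highest and IgG library 3 lay within the antibody range. Pvalb encodes parvalbumin, a calcium buffer of fast fibres that speeds relaxation. It read 12.8, 3.09, 36.0 and 12.0 in wild-type libraries 1 to 4 and 2.80, 10.8, 7.91, 0.913 and 57.8 in knockout libraries 1 to 5 at day 4. The day 6 counts of Pvalb were 852, 16365, 219 and 493 in IgG libraries 1 to 4 and 170.1, 6.87, 239 and 11.0 in antibody libraries 1 to 4. In RPM, Pvalb was at most 2.43 in every day 4 library, the muscle-rich ones included. It was at least 7.37 RPM in all IgG libraries and in antibody library 3, and 5.69, 0.225 and 0.367 RPM in antibody libraries 1, 2 and 4.

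Atp2a1 encodes SERCA1, the pump that returns calcium to the sarcoplasmic reticulum of fast fibres. Its normalized count was 29.4, 13.4, 2169.7 and 328 in wild-type libraries 1 to 4 and 22.4, 24.6, 361, 9.13 and 5220.2 in knockout libraries 1 to 5 at day 4. Atp2a1 at day 6 was 6014, 38043, 687 and 1641 in IgG libraries 1 to 4 and 312, 15.7, 971 and 61.7 in antibody libraries 1 to 4. Tnnt3, fast troponin T, followed the same libraries, with 31.4, 18.5, 3453 and 379 in wild-type libraries 1 to 4 and 15.9, 23.1, 481, 9.13 and 6955 in knockout libraries 1 to 5 at day 4. Tnnt3 at day 6 was 4585, 27521, 552 and 1449 in IgG libraries 1 to 4 and 292, 14.7, 878 and 28.7 in antibody libraries 1 to 4. For both genes the 4 high day 4 libraries were split evenly between the genotypes, and only IgG library 3 fell below the highest antibody library. Mylpf, the fast regulatory light chain, was 92.3, 86.6, 9204 and 950.0 in wild-type libraries 1 to 4 and 72.9, 79.3, 1374, 63.9 and 18375 in knockout libraries 1 to 5 at day 4. It was 3158, 21102, 719.6 and 1153 in IgG libraries 1 to 4 and 251, 74.6, 888 and 66.1 in antibody libraries 1 to 4 at day 6. Mylpf was also read in the cultured tumour cells, at 88.1 to 142. In a table normalized separately, it lay at 39.8 to 57.5 in the 8 Rag1-/- tumour pieces low in muscle transcripts.

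The other fast members (Myl1, Tnnc2, Tnni2, Actn3, Mybpc2, Casq1 and Myoz1) had their highest value in day 4 knockout library 5 and day 6 IgG library 2 as well. At day 4 the highest library exceeded the median library by 7.30-fold for Myoz1, an anchor of calcineurin at the Z-disc, and by 182-fold for Tnnc2, fast troponin C. At day 6 this ratio ran from 29.6-fold for Myl1, the essential light chain, to 62.3-fold for Mybpc2, fast myosin-binding protein C.

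Among the slow fibre members the 3 troponins had the highest mean counts at day 4, and Mybpc1 had the highest at day 6. Tnni1, slow troponin I (chromosome 1, 135779434 to 135810989, plus strand), read 84.4, 136, 2999.9 and 543 in wild-type libraries 1 to 4 and 108, 87.0, 621, 61.2 and 6093 in knockout libraries 1 to 5 at day 4. It read 165, 1259.8, 57.4 and 37.6 in IgG libraries 1 to 4 and 39.9, 48.1, 82.3 and 28.7 in antibody libraries 1 to 4 at day 6. Its second-highest day 6 value was only 165, and IgG libraries 3 and 4 lay among the antibody libraries. Tnnt1, slow troponin T, was 63.8, 43.3, 1891 and 296 in wild-type libraries 1 to 4 and 52.4, 56.2, 308, 33.8 and 3919.6 in knockout libraries 1 to 5 at day 4. At day 6 Tnnt1 was 369, 1734, 181 and 88.1 in IgG libraries 1 to 4 and 109.9, 119.8, 109 and 99.2 in antibody libraries 1 to 4. IgG library 4, with a high Acta1 count, had the lowest Tnnt1 count of day 6. Tnnc1 is the troponin C of slow fibres and heart, at 20.6, 31.9, 1967 and 241 in wild-type libraries 1 to 4 and 17.8, 25.4, 392, 21.0 and 3724 in knockout libraries 1 to 5 at day 4. At day 6 Tnnc1 was 235, 1052, 36.8 and 8.91 in IgG libraries 1 to 4 and 17.3, 7.85, 46.9 and 11.0 in antibody libraries 1 to 4. IgG library 4 was again at the low end, within the antibody range.

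Myh7, the slow myosin heavy chain, was lower than the slow troponins at day 4, at 3.93, 2.06, 96.1 and 214 in wild-type libraries 1 to 4 and 0.935, 1.54, 19.2, 0 and 267 in knockout libraries 1 to 5. It was 535, 1891, 36.8 and 0.990 in IgG libraries 1 to 4 and 20.3, 0.982, 2.47 and 8.82 in antibody libraries 1 to 4 at day 6. At day 4 Myh7 was highest in the same 4 libraries as most members. Their order differed, since wild-type library 4 had more Myh7 than wild-type library 3 but far less Acta1. Myl2, the slow regulatory light chain, missed the mean of 10 needed for testing at day 4, at 1.96, 1.03, 4.81 and 7.98 in wild-type libraries 1 to 4 and 0, 0.770, 4.52, 1.83 and 25.5 in knockout libraries 1 to 5. At day 6 Myl2 was 266, 1249, 10.3 and 0 in IgG libraries 1 to 4 and 12.8, 0.982, 1.65 and 11.0 in antibody libraries 1 to 4. IgG library 4 had no Myl2 read and 1 Myh7 read, while IgG libraries 1 and 2 were rich in both. Mybpc1, slow myosin-binding protein C, which fast fibres also carry, was 3.93, 3.09, 419 and 129.7 in wild-type libraries 1 to 4 and 4.67, 3.08, 117, 3.65 and 1172 in knockout libraries 1 to 5 at day 4. It was 1669, 4435, 171 and 407 in IgG libraries 1 to 4 and 32.4, 2.95, 331 and 14.3 in antibody libraries 1 to 4 at day 6. Unlike Myh7 and Myl2, Mybpc1 was high in IgG library 4.

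**Figure D2:**
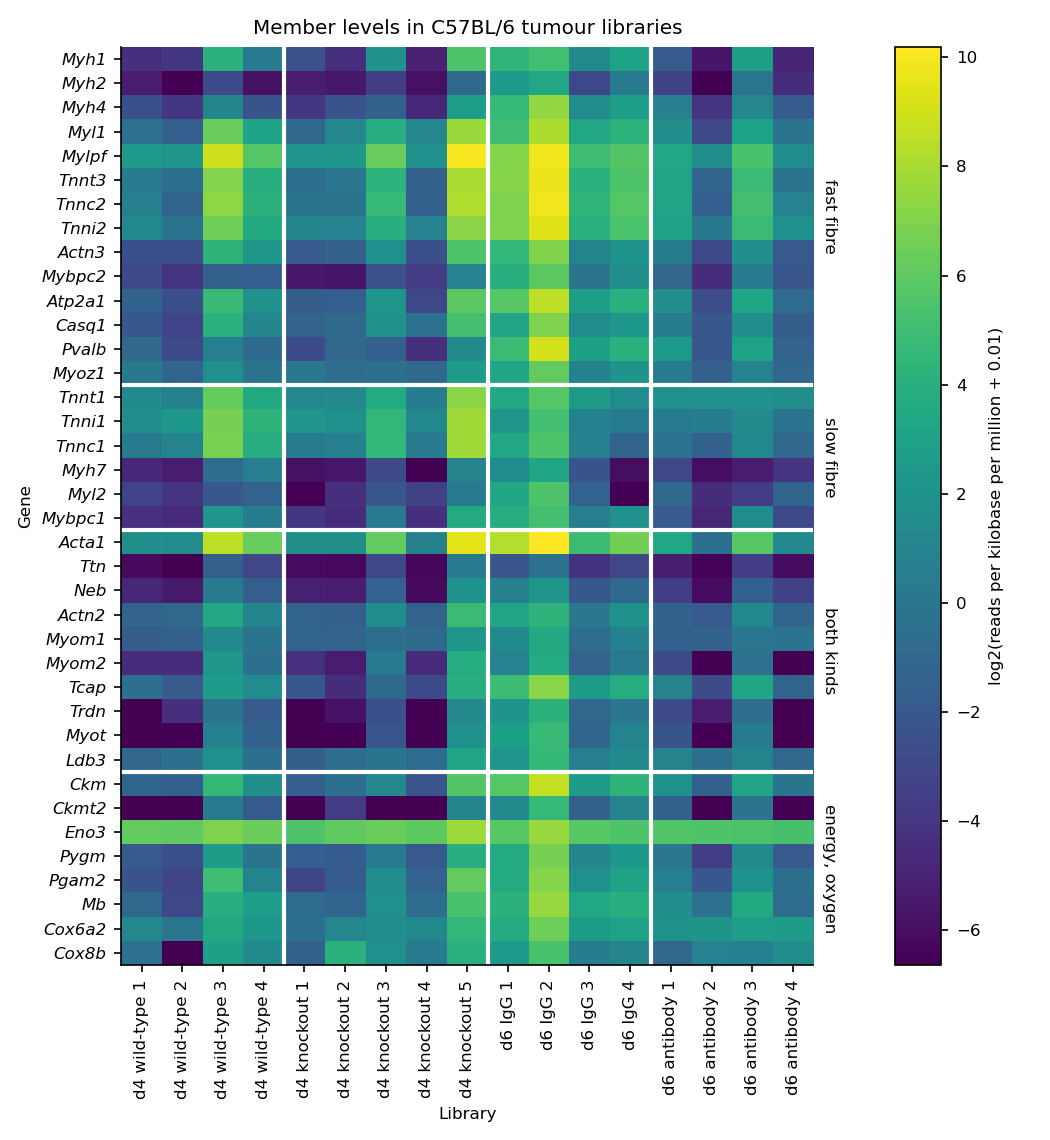
Levels of the 38 members (rows, grouped by role) in the 17 libraries of C57BL/6 tumours (columns), as log2(RPKM + 0.01), RPKM being RPM per kilobase of transcript. Day 4 knockout library 5 holds the highest day 4 value of every member but Cox8b, day 6 IgG library 2 holds the highest day 6 value of all, and Eno3 is bright in all columns.

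Of the sarcomere members used by both fibre kinds, Ttn encodes titin, the spring that spans the sarcomere from Z-disc to M-line. Its normalized count was 7.85, 1.03, 859 and 272 in wild-type libraries 1 to 4 and 9.35, 6.93, 294, 4.57 and 3184 in knockout libraries 1 to 5 at day 4. The day 6 counts of Ttn were 663, 2625, 143 and 337 in IgG libraries 1 to 4 and 53.4, 3.93, 221 and 14.3 in antibody libraries 1 to 4. In RPM, Ttn peaked at 134 at day 4 and 86.3 at day 6. Ttn in Rag1-/- hosts was 90.1 in wild-type library 1 and 90.9 in knockout library 5, and at most 3.14 in the other 8. Across Neb, Actn2, Myom1, Myom2, Tcap, Trdn, Myot and Ldb3 the highest day 4 value ran from 179.9 for Myot, a Z-disc protein, to 2096 for Neb, the ruler of the thin filament. At day 6 the highest value ran from 1720 for Myot to 4328 for Tcap, which caps titin at the Z-disc.

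Among the energy genes, Ckm, the muscle creatine kinase that buffers ATP, read 27.5, 23.7, 1609 and 219 in wild-type libraries 1 to 4 and 18.7, 41.6, 156, 12.8 and 3319.8 in knockout libraries 1 to 5 at day 4. Ckm at day 6 was 4414, 32684, 497 and 1536 in IgG libraries 1 to 4 and 327, 30.4, 727 and 73.8 in antibody libraries 1 to 4. The same 4 day 4 libraries were high, and IgG library 3 lay below antibody library 3. Mb encodes myoglobin, the oxygen store of muscle, and was 12.8, 3.09, 389 and 171 in wild-type libraries 1 to 4 and 14.023, 10.8, 91.5, 16.4 and 1066 in knockout libraries 1 to 5 at day 4. It was 600.4, 6592, 349 and 478 in IgG libraries 1 to 4 and 100.1, 26.5, 384 and 19.8 in antibody libraries 1 to 4 at day 6. Mb was also read in culture, at 25.2 to 72.7. Cox8b, a respiratory chain subunit of muscle and brown fat, was 6.87, 0, 64.9 and 22.0 in wild-type libraries 1 to 4 and 2.80, 141, 29.4, 10.045 and 141 in knockout libraries 1 to 5 at day 4. It was 57.8, 444, 14.7 and 20.8 in IgG libraries 1 to 4 and 5.27, 19.6, 17.3 and 34.2 in antibody libraries 1 to 4 at day 6. Day 4 knockout library 2 matched knockout library 5 in Cox8b, with 6.40 against 5.93 RPM, although its other members were low. That library also had the highest sum of white adipocyte genes, 6051 RPM, and 3.85 RPM of brown adipocyte genes against 1.06 to 4.81 RPM in the rest of day 4, and their part in its Cox8b was not tested.

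Eno3 encodes the beta enolase of glycolysis and was the exception, being well expressed without muscle. In culture its counts were 2974, 2138 and 2241 for the wild-type cells and 4793 and 3962 for the knockout cells. At day 4 it was 2616, 2557, 4599 and 2994 in wild-type libraries 1 to 4 and 1514, 2302, 2966, 2268 and 7749 in knockout libraries 1 to 5. The day 6 counts of Eno3 were 2617, 9152, 2631 and 2092 in IgG libraries 1 to 4 and 2298, 2272, 2029 and 1864 in antibody libraries 1 to 4. At day 4 the highest Eno3 counts were in knockout library 5 and wild-type library 3, and at day 6 the highest was in IgG library 2. IgG library 1, also rich in muscle transcripts, read 2617, below IgG library 3 at 2631.

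Most members had the same high libraries. Myh7, Myl2 and the slow troponins were low in day 6 IgG library 4, and Myh7 and Myl2 were higher in day 4 wild-type library 4 than in wild-type library 3. By normalized count, day 4 knockout library 5 was the highest of its table for 38 of 38 members, although by RPM Cox8b was higher in knockout library 2. For 31 of 38 the 4 highest day 4 libraries were wild-type 3 and 4 and knockout 3 and 5, the exceptions being Myh2, Pvalb, Myoz1, Tcap, Ldb3, Ckmt2 and Cox8b. At day 6 IgG library 2 was the highest for 38 members and IgG library 1 the second for 37. IgG libraries 1 and 2 were above every antibody library for 38 of 38.

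The make-up of the muscle transcripts differed between the pieces. Myosin heavy chain reads were split over Myh3 (embryonic), Myh8 (perinatal), Myh1, Myh2, Myh4 and Myh7, which have transcripts of near-equal length, 6016 to 6230 bases. Myh3 and Myh8 are not members and were named after their values were seen. Among the C57BL/6 tumours, shares are given for the 10 libraries with at least 500 heavy chain reads, with exact Clopper-Pearson intervals that cover counting error only. In day 4 knockout library 5, Myh3 made up 57.4% (exact 95% interval 56.8% to 58.0%) of 25199 heavy chain reads, Myh8 14.3%, Myh1 23.5% and Myh4 3.51%. The Myh3 share was 57.1% (exact 95% interval 56.1% to 58.1%) in wild-type library 3, 54.3% (exact 95% interval 51.4% to 57.2%) in wild-type library 4 and 57.9% (exact 95% interval 55.7% to 60.1%) in knockout library 3. All 4 day 4 libraries with enough reads thus had the embryonic gene as their main heavy chain, at shares whose intervals overlapped between all 4. They parted in Myh7, which took 18.6% in wild-type library 4 and 0.880%, 0.863% and 0.952% in wild-type 3, knockout 3 and knockout 5.

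In the day 6 libraries the adult fast genes were the main heavy chains instead. Those libraries also carry IgG or antibody labels, have no Ddr1 genotype in their labels and stand in a separate table. Day therefore cannot be told apart from these in any contrast of day 4 with day 6. Myh4 made up 73.5% (exact 95% interval 73.1% to 73.9%) of 45041 heavy chain reads in IgG library 2 and 71.6% of 535 in antibody library 1. It was 44.8%, 43.4% and 40.0% in IgG libraries 1, 3 and 4 and 18.4% in antibody library 3. In antibody library 3 Myh1 led with 64.4%, and in IgG library 4 Myh1 had 51.1%. The Myh3 share was at most 6.13% in these 6 libraries, in antibody library 3, and at least 0.447%, in IgG library 1. So the 6 day 6 libraries were mostly fast IIb or IIx in heavy chain, and the highest 2 Myh4 shares came from 1 library of each treatment. Of all 50-base windows of these transcripts, 26.7% in Myh2, 26.1% in Myh1, 19.9% in Myh8 and 18.6% in Myh4 occur in another of the 6, against 3.66% in Myh3 and 0.210% in Myh7, so reads could be assigned to the wrong fast gene, and how such reads were counted is not given in the sources used here.

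**Figure D3:**
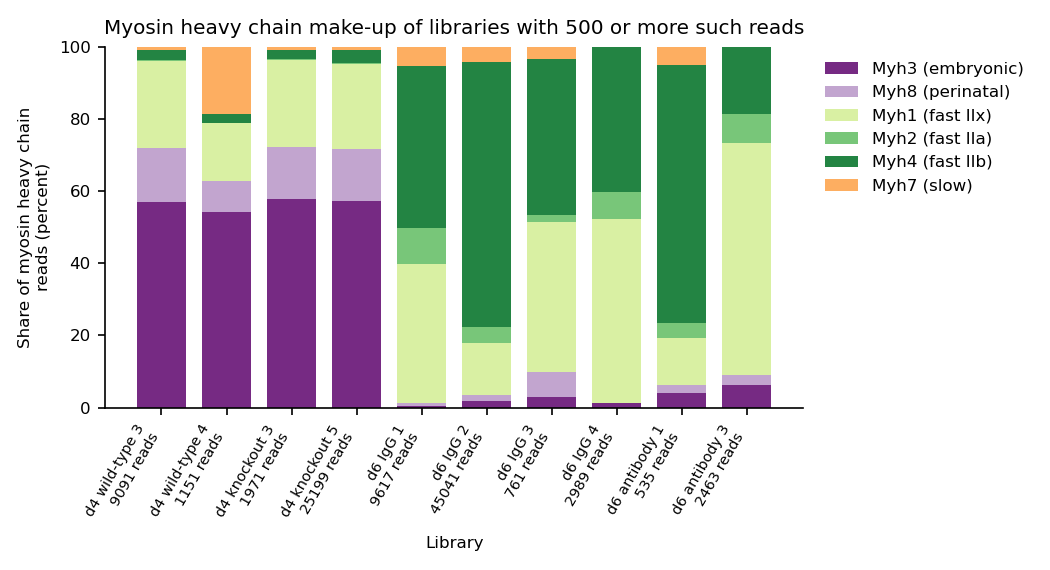
Share of myosin heavy chain reads (percent) taken by 6 genes in the 10 C57BL/6 libraries with 500 or more such reads, with the number of reads under each bar. Myh3 takes 54.3% to 57.9% in the 4 day 4 libraries and 0.447% to 6.13% in the 6 day 6 libraries, where Myh4 and Myh1 lead.

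Regulators of muscle formation, also named after their values were seen, were high in the same day 4 pieces. Myog encodes myogenin, a transcription factor of differentiating myoblasts, and was 8.83, 4.12, 2680.3 and 371 in wild-type libraries 1 to 4 and 15.0, 9.24, 449, 0 and 6517 in knockout libraries 1 to 5 at day 4. At day 6 Myog was 21.7, 333, 33.8 and 35.6 in IgG libraries 1 to 4 and 1.5049, 0, 55.1 and 0 in antibody libraries 1 to 4. Myod1, the determination factor, was 8.83, 3.09, 853 and 248 in wild-type libraries 1 to 4 and 0.935, 0, 92.6, 0.913 and 2208 in knockout libraries 1 to 5 at day 4. Its highest day 6 values were 126 in IgG library 2 and 9.87 in antibody library 3. Mymk, the myoblast fusion factor, was 2.94, 2.06, 1318 and 132 in wild-type libraries 1 to 4 and 3.74, 1.54, 305, 0.913 and 2892 in knockout libraries 1 to 5 at day 4, and its highest day 6 value was 200.02, in IgG library 2. Pax7, the marker of satellite cells, was 0.981, 0, 25.2 and 12.0 in day 4 wild-type libraries and 0, 0, 5.65, 0 and 109 in knockout libraries, and at most 1.99 at day 6. The list of 13 stem cell and regeneration genes summed to 10.8 to 694 RPM in day 4 wild-type and 6.92 to 1713 RPM in day 4 knockout tumours. It summed to 18.4 to 117 RPM after IgG and 9.37 to 29.8 RPM after antibody. No gene of that list was called among the 12 tested at day 4 or the 10 tested at day 6, where limma called 0.0354% and 0% of all genes. In Rag1-/- hosts limma called 1 of the 4 tested, higher in the knockout, against 22.7% of all genes.

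The 2 muscle-bearing Rag1-/- libraries were under that minimum of 500 reads and are given with their intervals. Of 240 heavy chain reads in wild-type library 1, Myh1 took 65.8% (exact 95% interval 59.5% to 71.8%) and Myh2 23.3%, and of 204 in knockout library 5 Myh1 took 76.5% (exact 95% interval 70.0% to 82.1%). Xirp2, a gene of the muscle cell junctions named after its values were seen, had 157 and 162 normalized counts in these 2 libraries and 0 in the other 8.

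Fast and slow members were then compared per kilobase, as the difference between the mean log2(normalized count per kilobase + 1) of the 14 fast and the 6 slow members within each library. For the day 4 wild-type libraries this log2 difference was 0.13, -0.68, 0.55 and -0.69, and for the knockout libraries 0.06, 0.21, 0.18, -0.21 and 0.41. At day 6 it was 2.03, 2.51, 1.90 and 4.68 in IgG and 1.68, -0.25, 3.02 and 0.15 in antibody libraries. Day 4 values lay close to 0 in both genotypes, and all IgG libraries lay well above 0, with antibody libraries 1 and 3 beside them and antibody libraries 2 and 4, which hold few muscle reads, near 0. In the high Rag1-/- libraries it was 1.15 and 0.88, against -1.07 to -0.44 in the other 8. The 3 wild-type culture libraries had -0.82, -0.76 and -0.49, and the knockout ones -0.43 and -0.42. The median over the 9 day 4 libraries, 0.13, became -0.24 when the log2 ratio of mean RPKM per member (the sum over 14 fast or 6 slow members divided by their number) replaced the difference of mean logs, so no side is given for day 4, whereas the day 6 median of 1.96 became 2.40.

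**Figure D4:**
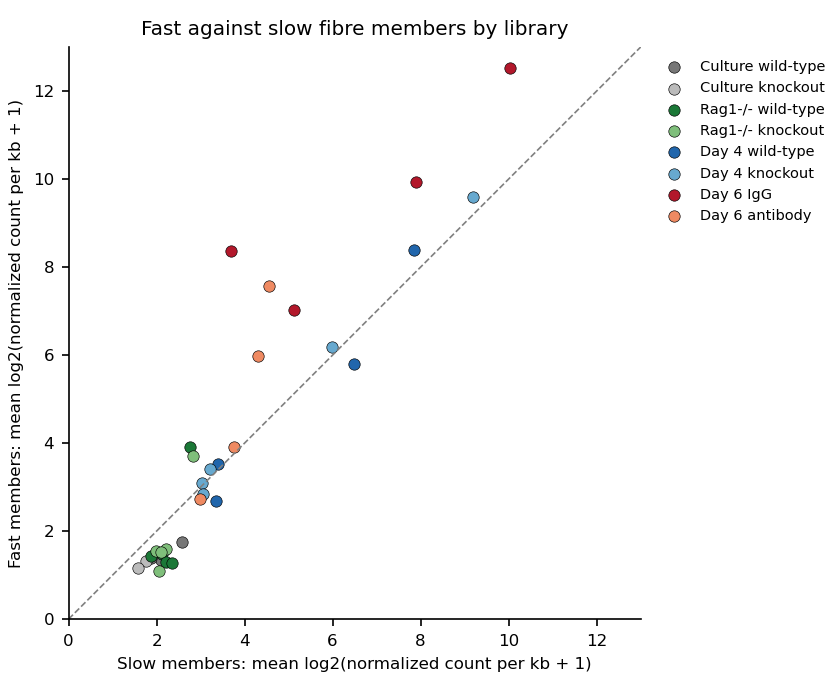
Mean log2(normalized count per kilobase + 1) of the 14 fast members (vertical axis) against that of the 6 slow members (horizontal axis) in 32 libraries, coloured by group, with the line of equality dashed. Day 4 libraries follow the line up to the highest values, and the 6 muscle-bearing day 6 libraries lie 1.68 to 4.68 above it.

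The paired troponin subunits were compared within single libraries. The ratio per kilobase of fast Tnnc2 to slow Tnnc1 was 1.40, 1.24, 1.10 and 1.33 in day 4 wild-type 3 and 4 and knockout 3 and 5. At day 6 it was 11.2, 18.7, 12.0 and 123 in IgG libraries 1 to 4 and 11.3, 0.901, 15.6 and 3.40 in antibody libraries 1 to 4. The ratio of Tnni2 to Tnni1 was 0.586 to 0.839 in those 4 day 4 libraries, 26.0, 18.3, 9.64 and 38.1 in the IgG libraries and 6.75, 0.795, 11.5 and 4.20 in the antibody libraries. Tnnt3 to Tnnt1 was 1.26 to 1.79, then 12.2, 15.6, 2.99 and 16.1 after IgG and 2.61, 0.121, 7.93 and 0.284 after antibody. Slow troponin T thus led in antibody libraries 2 and 4, which hold few muscle reads. Tnnt1 had a base level of 24.1 to 48.0 normalized counts in culture and 23.0 to 42.4 in Rag1-/- hosts. Tnni1 had one of 8.39 to 52.7 and 19.3 to 34.0. The part of these base levels in the fast to slow ratios was not tested. IgG library 4 had the widest gap between fast and slow troponins for all 3 subunits. Of the members, 9 overlap another protein-coding gene on the opposite strand (Tnnc2, Atp2a1, Tnnc1, Myh7, Myl2, Acta1, Myom1, Mb and Cox6a2), and whether counting used strand is not given in the sources used here.

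Tumours given the antibody were set against those given IgG at day 6. All 38 members were lower on average after antibody, with a median log2 change of -4.21 against -0.012 over all 14155 genes tested, but no member was called. Calls are at a Benjamini-Hochberg adjusted p under 0.05 in limma over all genes tested, and here limma called 0% of all genes. Of the 38 members, 30 had an unadjusted p under 0.05, against 8.6% of all genes. The 2 groups did not overlap for 2 members, Myh4 and Myl1, against 3.9% of all genes. The log2 change for Myh4 was -5.13 (SE 1.45, limma adjusted p = 0.517), between 9763 ± 15546 (SD, n = 4) after IgG and 180.2 ± 177 (SD, n = 4) after antibody. For Myl1, the fast essential light chain, it was -4.72 (SE 1.31), between 2746 ± 4161 (SD, n = 4) and 101 ± 119.6 (SD, n = 4). In both genes the SD of the IgG group exceeded its mean, with most of the counts in IgG library 2.

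The other 3 of the 5 members with the smallest p were Trdn, Mybpc1 and Acta1. The log2 change was -5.33 (SE 1.49) for Trdn, triadin of the calcium-release triad, with 818 ± 1154 (SD, n = 4) against 25.4 ± 38.7 (SD, n = 4). It was -4.89 (SE 1.37) for Mybpc1, with 1670.5 ± 1957 (SD, n = 4) against 95.1 ± 158 (SD, n = 4). It was -4.99 (SE 1.42) for Acta1, with 17674 ± 23141 (SD, n = 4) against 741 ± 1090.1 (SD, n = 4). These 3 were lower in 3 of 4 antibody libraries than in any IgG library, antibody library 3 being the exception, and all 5 had the same limma adjusted p. By role, an unadjusted p under 0.05 was reached by 14 of 14 fast members (median log2 change -4.70), 1 of 6 slow members (-2.76), 10 of 10 sarcomere and triad members (-4.30) and 5 of 8 energy members (-3.77). The slow one was Mybpc1, and the difference between fast and slow members in response was not tested. Tnnt1 and Tnni1 were also read in cultured tumour cells, and the part of that base level in the slow median was not tested. edgeR on the recovered reads called no member and 0% of all genes. DESeq2 on the same reads called 12 of 34 members with an adjusted p, all lower, against 1.18% of all genes, with an adjusted p of 0.0144 for Myh4 and 0.0395 for Myl1. Without IgG libraries 1 and 2, which were left out for their high member levels after the data were seen, the median was -2.51 and limma again called no member.

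Other tissue markers differed between the day 6 groups as well, and none of their genes was called. White adipocyte genes summed to 255 to 595 RPM after IgG and 188 to 1534 RPM after antibody, with all 9 genes higher on average after antibody. They were highest in antibody libraries 2 and 4, which had the fewest muscle reads. Skin keratinocyte genes summed to 0.445 to 1.86 RPM after IgG and 0.982 to 209 RPM after antibody, and epithelial genes to 185 to 207 RPM and 185 to 515 RPM. Their part in the muscle difference was not tested. The heart list of 8 genes summed to 34.1 to 63.2 RPM in culture, 36.3 to 682 RPM at day 4 and 27.4 to 72.2 RPM at day 6. Of that list, Tnni3, Myl7, Nppb and Mybpc3 are not given singly. Myh6, a myosin of the atria and of the adult mouse ventricle, was at most 0.205 RPM in any library, and Nppa at most 0.467 RPM. Tnnt2 and Myl4, heart genes that developing skeletal muscle also uses and that were named after their values were seen, reached 6351 and 9144 normalized counts in day 4 knockout library 5.

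The knockout was set against wild type at day 4 to ask what Ddr1 loss changes once the tumour meets an intact immune system. No muscle difference was detectable there, and each genotype held libraries near both ends of the range. limma called none of the 37 members tested and 0.0354% of all 14105 genes. No member had an unadjusted p under 0.05, against 15% of all genes, and for none did the groups not overlap, against 5.76%. edgeR called 0 members against 0.0284% of genes, and DESeq2 0 of the 10 members with an adjusted p against 4.95%. The median log2 change of members was -0.25, with 10 above 0 and 27 below, against 0.0028 over all genes. It was 0.70 in edgeR and 0.69 in DESeq2, 0.88 without wild-type library 3, and 0.28, 0.18 and 0.27 without knockout libraries 1, 2 and 4. It was -0.90, -1.06 and -1.42 without wild-type libraries 1 and 2 and knockout library 5, so no direction is given.

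The members of smallest p at day 4 were Cox8b, Tcap, Myh7, Myh2 and Mybpc2. The log2 change was 1.54 (SE 1.38, limma adjusted p = 0.632) for Cox8b and -1.57 (SE 1.45, adjusted p = 0.643) for Tcap. It was -1.63 (SE 1.81, limma adjusted p = 0.704) for Myh7, 1.02 (SE 1.27, adjusted p = 0.736) for Myh2 and -0.81 (SE 1.25, adjusted p = 0.791) for Mybpc2. All 5 differences were smaller than 2 standard errors. The signs for Tcap and Mybpc2 turned positive in edgeR and DESeq2. Other tissues differed between the genotypes beside this. Keratinocyte genes summed to 0.688 to 1.99 RPM in wild-type and 13.4 to 619 RPM in knockout tumours, and adipocyte genes to 130.3 to 647 RPM and 310 to 6051 RPM, with none of their genes called. Of the 5 epithelial genes, 4 had an unadjusted limma p under 0.05, against 15% of all genes. Their median log2 change was 3.49 and none was called. The part of these tissues in the members' values was not tested.

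**Figure D5:**
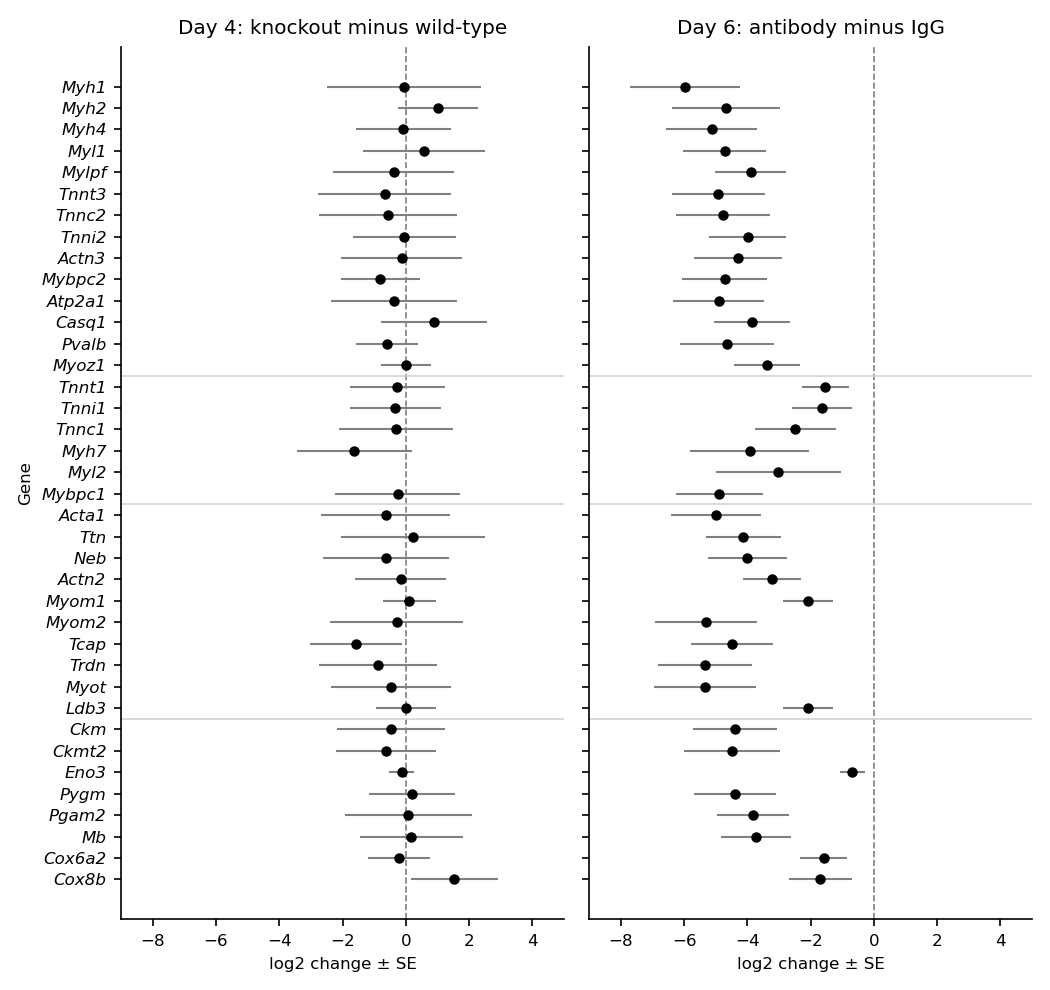
Log2 change ± SE from limma for each member, by role from fast fibre (top) to energy genes (bottom), for knockout minus wild-type at day 4 (37 members, 4 and 5 libraries) and antibody minus IgG at day 6 (38 members, 4 libraries each). Day 4 values lie on both sides of 0 with a median of -0.25, and all day 6 values lie below 0, from -5.98 for Myh1 to -0.68 for Eno3.

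In Rag1-/- hosts 15 members had a mean of 10 or more, and Eno3 was the one that limma called, while it called 22.7% of all 12795 genes. Eno3 rose from 1688 ± 143 (SD, n = 5) in wild-type to 2167 ± 184 (SD, n = 5) in knockout tumours, a difference in log2 values of 0.36 with SE 0.07 (adjusted p = 0.00264 in limma). All 5 knockout libraries were above all 5 wild-type libraries, and a share of 15% of all genes had groups that did not overlap. The counts were also 1 of 15 at an unadjusted p under 0.05 (36.1% of genes), 1 of 15 in edgeR (22.7%) and 1 of 11 in DESeq2 (24.8%). The next smallest p belonged to Pygm, muscle glycogen phosphorylase, whose log2 change was 0.55 with SE 0.28 (adjusted p = 0.174 in limma), and Ldb3, a Z-disc protein, with -0.33 (SE 0.17, adjusted p = 0.188). Mb stood at -0.60 (SE 0.33, limma adjusted p = 0.207) and Ckm at 0.64 (SE 0.38, adjusted p = 0.249). The Mb value depended on 1 library, since without knockout library 5 it was -0.88 with an adjusted p of 0.0380 in limma. The median change of the members was 0.14 and became -0.29 without that library.

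In culture 11 members were tested and limma called none, against 0.327% of all 11911 genes. Eno3 was higher in the knockout cells, 4377 ± 587 (SD, n = 2) against 2451 ± 456 (SD, n = 3), a difference in log2 values of 0.85 with SE 0.17 (adjusted p = 0.0686 in limma). DESeq2 called it, as 1 of 11 members against 8.86% of genes, and limma did so without wild-type library 1, with an adjusted p of 0.00632. Acta1 had a log2 change of -2.65 with SE 1.26 (adjusted p = 0.316 in limma), and the parental library was the highest by far. The changes for Tnni1, Ldb3 and Mb were -1.22 (SE 0.63), -1.02 (SE 0.42) and -0.93 (SE 0.38). Eno3, Ldb3 and Mb had an unadjusted p under 0.05, against 18.8% of genes, and the groups did not overlap for 5 members, against 36.2%. edgeR called no member, against 0.21% of genes.

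Beyond the members, 35 other adult muscle genes from a list of the same tissue were followed. At day 6 all 35 were tested, all were lower on average after antibody (median log2 change -3.09) and 29 had an unadjusted p under 0.05, against 8.6% of all genes, with none called. At day 4, 33 were tested, with 11 above 0, 22 below 0 and none called. Among the Rag1-/- tumours limma called 2 of the 13 tested, both higher in the knockout, against 22.7% of all genes, and in culture none of 12 was called. Des, the intermediate filament desmin, named after its values were seen, was 228, 285, 8176 and 2021 in wild-type libraries 1 to 4 and 459, 578, 1231, 504 and 15740.5 in knockout libraries 1 to 5 at day 4, and it kept a level of 225 to 475 in culture. Casq2, the calsequestrin of slow and developing fibres, named likewise, reached 3072 normalized counts at day 4 and 437 at day 6. Those 2 values come from separately normalized tables and are not compared.

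Among the genes outside the set whose profile over the 17 libraries lay nearest to the members' mean profile were Alpk3, Klhl31, Eef1a2, Smpx, Ano5, Myoz2 and Mypn. Likeness was the root mean square difference of log2 values centred in each table, over the 11603 genes whose mean reached 50 in both tables, and it ran from 0.391 for Alpk3 to 0.687 for Mypn. Alpk3, a muscle kinase-like protein, was at most 3.85 normalized counts in the 5 other day 4 libraries, and was 138, 28.9, 38.4 and 349 in wild-type 3 and 4 and knockout 3 and 5. At day 6 it was 112, 373, 22.1 and 31.7 in IgG libraries 1 to 4 and 9.03, 0.982, 19.7 and 1.10 in antibody libraries 1 to 4. Smpx and Myoz2 stand in the list of other adult muscle genes, and Alpk3, Klhl31, Eef1a2, Ano5 and Mypn stand in none of the lists.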

How the data were processed

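RNA-seq of polyadenylated RNA was measured in 32 libraries in 8 groups, with groups taken from the sample labels. The 4 deposited tables hold the authors' normalized read counts, a signal scaled per library, with each table normalized separately. Per the labels' protocols, RNA was extracted with Trizol and libraries followed a TruSeq stranded mRNA guide. Per the submitters' processing notes, CASAVA, TopHat, DESeq2 and the build mm10 were used, while counting tool, annotation and strand setting were not given in the sources used here. Dividing each library by its smallest value above 0 gave whole reads (within 0.01) for 100% of values, and these reads gave depth, RPM and the count tests.

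The members and all other lists were chosen with earlier results of these data known. Genes with a mean of 10 or more were tested within each table in limma 3.58.1 (R 4.3.3, trend option on), on log2 of the normalized count plus 1, two-sided, with Benjamini-Hochberg adjustment over all genes tested; fold changes are on that scale and understate changes of low genes. Named with changes and errors were up to 8 called members per comparison, or else the 5 of smallest p, and 18 members plus called ones by library. Alternatives were other pseudocounts and filters, upper-quartile and quantile scaling, no trend, edgeR 4.0.16 and DESeq2 1.42.0 on the reads, a replicate block and leaving out each library. Leaving out the 2 libraries highest in the members was added after seeing the data, as was the 500-read minimum for myosin shares. The test was checked on simulated data. Positions and lengths came from the GRCm38 annotation, and promoters from RefSeq (GRCm38.p6). Python 3.11.15 with pandas 2.3.3 and scipy 1.17.1 was used. Of the genes with the nearest profiles, 1 is not reported here.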

Additional observations from a re-analysis of the deposited data

Results flagged for a closer look

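Of 262 groups of 4 or 5 libraries examined over the members and a few related genes, 18 had a highest library whose gap to the next one exceeded Dixon's critical value at 95%, and chance gives about 1 group in 20. The genes share the same libraries, so these groups are not independent and the flags serve as a description only. All values here are normalized counts.

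In Rag1-/- hosts, wild-type library 1 stood apart for Acta1 (230.0 against 5.88 in the next library), Myh1 (171 against 2.28), Mylpf (107 against 46.4), Tnni2 (32.6 against 11.8) and Ttn (90.1 against 0). It also stood apart for desmin, Des (357 against 187), and for Xirp2 (157 against 0). Knockout library 5 stood apart for Acta1 (186 against 11.5), Myh1 (140.5 against 2.20), Neb (41.4 against 4.18) and Xirp2 (162 against 0). These are 1 library of each genotype.

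At day 4, knockout library 5 stood apart within its group for Myoz1 (196.6 against 29.9), Myom1 (659.7 against 87.0), Ckmt2, the mitochondrial creatine kinase of muscle (67.8 against 2.31), and Des (15740.5 against 1231). At day 6, IgG library 2 stood apart for Eno3 (9152 against 2631), Myh3 (811 against 44.4) and Myod1 (126 against 8.25).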

How the results depend on the processing

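In culture, DESeq2 called 1 member (Eno3, log2 change 0.83, adjusted p = 0.000578) where limma called 0, and leaving out 1 library gave 0 to 1, with Eno3 called without wild-type library 1 (0.99). In Rag1-/- hosts leaving out 1 library gave 1 to 2 members called, the further one being Mb without knockout library 5, and a median log2 change of members from -0.29 to 0.36. At day 4 no alternative called a member, and the median was 0.70 in edgeR, 0.69 in DESeq2 and from -1.42 to 0.88 over the libraries left out. There Tcap was 0.32 in both count tools, and Mybpc2 was 0.92 in edgeR and 0.93 in DESeq2. At day 6 DESeq2 called 12 members, Myl1 (-4.77) and Myh4 (-5.76) among them, and no other alternative called any. As a log2 ratio of mean RPKM per member, the median fast minus slow level was 0.68 in culture and -0.24 at day 4, and without Myh1, Myh2 and Myh4 it was -0.15 and 0.76. The cause of these changes was not tested.

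Same-numbered libraries correlated with mixed sign (-0.204 to 0.146 in Rag1-/- hosts, -0.174 to 0.144 at day 4, -0.198 to 0.446 at day 6), so the replicate numbers were not taken as a pairing. With a replicate block, limma called 1, 0 and 0 members in Rag1-/- hosts, at day 4 and at day 6, and the medians were 0.14, -1.42 and -4.21. The day 4 block drops knockout library 5, which has no wild-type partner number. Without the 2 libraries highest in the members the medians were 0.12, -0.29 and -2.51, with 1, 0 and 0 called. Myosin shares of libraries with under 500 heavy chain reads have wide counting intervals.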
